A study of Drosophila melanogaster with 3 samples.

Results

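The genes for initiator methionine tRNA are described here by the binding of Bdp1 at their 5' ends. All genes whose name in the Ensembl annotation starts with tRNA:iMet- were taken, which gave 6 of the 290 nuclear tRNA genes and of the 24166 annotated genes. The data are chromatin immunoprecipitation and sequencing (ChIP-seq) peak lists from whole *Drosophila melanogaster* embryos. The embryos were 0 to 24 h old and of both sexes, and carried a transgene for Bdp1 (CG9305) fused at its C terminus to GFP, which the antibody recognised. There were 3 biological replicates of this 1 line, with no other genotype, treatment or stage, and chromatin was sonicated to 200 to 800 bp. A further list, the optimal set, holds 3206 peaks that the authors obtained from all 3 replicates by the irreproducible discovery rate procedure. No read counts were analysed here, so the depth behind each peak is unknown and no counting interval is given.

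The initiator tRNA carries methionine, pairs with the start codon in the ribosomal P site and is brought there by the factor eIF2 with GTP. Elongator methionine tRNA has the same anticodon but is made from other genes and delivers methionine inside the protein chain. Both kinds of gene are transcribed by RNA polymerase III (Pol III) from promoter elements inside the gene, the A box and the B box. TFIIIC binds these boxes and places TFIIIB, of which Bdp1 is a subunit, just upstream of the gene. Transcription ends at a run of T on the coding strand.

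The 5 genes tRNA:iMet-CAT-1-1 to tRNA:iMet-CAT-1-5 are identical over all 72 bp, while the DNA around them mostly differs. The flanks of the 3 copies on chromosome arm 3L are shown because these copies hold the highest and the lowest initiator peak. Whether the flanks bear on the height of the peaks was not tested. All are from the RefSeq release 6 assembly of the dm6 build, written 5' to 3' on the strand of the gene, and each occurs 1 time in the assembly. The first lines give the 60 bases directly before the gene's first base. Capitals mark a shared word of 10 bases and the shared last 7 bases in the divergent pair (tRNA:iMet-CAT-1-4, tRNA:iMet-CAT-1-5), and TTGAACAT in tRNA:iMet-CAT-1-3.
tRNA:iMet-CAT-1-4, upstream, minus strand of chr3L:14674014-14674073: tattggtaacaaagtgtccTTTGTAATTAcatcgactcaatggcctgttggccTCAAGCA
tRNA:iMet-CAT-1-5, upstream, plus strand of chr3L:14674284-14674343: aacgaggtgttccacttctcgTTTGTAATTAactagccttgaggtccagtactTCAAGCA
tRNA:iMet-CAT-1-3, upstream, minus strand of chr3L:743795-743854: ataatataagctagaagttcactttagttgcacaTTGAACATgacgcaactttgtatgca
The next lines give the first 30 bases past the gene, with the first run of T in capitals, and beside them those of the elongator gene tRNA:Met-CAT-1-3. For both genes of the divergent pair the 30 bases end inside this run, so its full length is not shown.
tRNA:iMet-CAT-1-4, downstream, minus strand of chr3L:14673912-14673941: tgtggtacaaattcgcatgagcgaaTTTTT
tRNA:iMet-CAT-1-5, downstream, plus strand of chr3L:14674416-14674445: tgtggtacaattcgcatgagcgaaTTTTTT
tRNA:iMet-CAT-1-3, downstream, minus strand of chr3L:743693-743722: tgtgcttatatcaTTTTTTgggagattttt
tRNA:Met-CAT-1-3, downstream, plus strand of chr3L:16222104-16222133: tgtacaTTTTTTgtattagaaaacaaaaat

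The printed flanks of the divergent pair share bases directly beside both ends of the gene. tRNA:iMet-CAT-1-4 shares 7 identical bases with tRNA:iMet-CAT-1-5 directly before the 5' end and 10 directly after the 3' end. The 10 are counted without gaps. Apart from an extra a in tRNA:iMet-CAT-1-4, the printed downstream bases of the pair are the same up to the run of T. Placed base against base without gaps, 31.7% of their 60 upstream bases are the same. Over the 15 pairs that the 6 initiator genes form, this identity ran from 13.3% to 48.3%, so the upstream DNA is mostly different. It was higher for tRNA:iMet-CAT-1-1 with tRNA:iMet-CAT-1-2 (48.3%) and with tRNA:iMet-CAT-1-3 (45%), which each share an upstream word of 9 bases with it. The words in capitals were picked from these sequences after the values were seen, and the word of 10 bases was not counted over all tRNA genes. TCAAGCA, searched on the gene's strand in the 60 bases upstream, occurs in 3 of the 290 tRNA genes (1.03%), which are this pair and tRNA:Leu-TAA-3-1. TTGAACAT also occurs in 3 tRNA genes (1.03%), namely tRNA:iMet-CAT-1-3, tRNA:iMet-CAT-1-1 and tRNA:Ala-AGC-2-3, and starts 26 bases before the 5' end in both initiator genes. TTGAACAT is thus shared by the initiator gene with the lowest peak and one under a far higher peak.

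The 6 genes lie at 4 places in the genome. On 3L, tRNA:iMet-CAT-1-4 (FBgn0011927, chr3L:14673942-14674013, minus strand) and tRNA:iMet-CAT-1-5 (FBgn0011928, chr3L:14674344-14674415, plus strand) point away from each other with 331 bp between their 5' ends, and are called the 3L pair. Both sit in an intron of ome, which encodes a dipeptidyl peptidase. tRNA:iMet-CAT-1-3 (FBgn0052482, chr3L:743723-743794, minus strand) stands alone in an intron of hng3, on the strand of hng3. On 2R, tRNA:iMet-CAT-1-1 (FBgn0050452, chr2R:19725620-19725691, minus strand) and tRNA:iMet-CAT-1-2 (FBgn0050218, chr2R:19725905-19725976, plus strand) form a further divergent pair, the 2R pair, with 214 bp between the 5' ends. The last gene, tRNA:iMet-CAT-2-1 (FBgn0011921, chr2R:9661225-9661296, plus strand), stands alone in an intron of Mmp2, a matrix metalloproteinase gene of the opposite strand. Its sequence differs from that of the other 5 by the single substitution C39T, counted from 1 at the gene's 5' end with the base of the other copies first.

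All 6 initiator genes had an optimal peak within 100 bp of the 5' end. The same was true of 92.8% of the nuclear tRNA genes and of 13.7% of the protein-coding genes, so a peak at an initiator gene is what most tRNA genes have. Among the optimal peaks with a signal above the median of the set, 5 of the 6 genes kept a peak, beside 88.3% of all tRNA genes. In single replicates, counting the 3206 strongest peaks of each, the count was 6 in replicate 1 (all tRNA genes 91.7%), 5 in replicate 2 (91.0%) and 5 in replicate 3 (89.3%). The gene lost each time was tRNA:iMet-CAT-1-3. Because each divergent pair lies under 1 peak, the 6 genes carry only 4 separate peaks.

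Peak signals are the authors' values, and their scale between lists is not stated. Within each replicate, signals were therefore expressed relative to the median that the optimal peaks had there, which was 43.5 in replicate 1, 56.3 in replicate 2 and 50.04 in replicate 3. This quotient is called the relative signal. At the 3L pair the relative signal was 73.8 in replicate 1, 84.9 in replicate 2 and 74.0 in replicate 3, with a mean of 77.6 ± 6.32 (SD, n = 3). This peak ranked 2, 2 and 3 among the 30000 relaxed peaks of replicates 1, 2 and 3, and 2 of 3206 in the optimal set. It was one of the highest Bdp1 peaks in the embryo genome in all replicates.

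The peak over the 2R pair had a relative signal of 27.1 in replicate 1, 30.03 in replicate 2 and 20.8 in replicate 3 (mean 26.0 ± 4.72, SD, n = 3) and ranked 33 in the optimal set. tRNA:iMet-CAT-2-1, the copy with the substitution, had 2.61, 3.01 and 2.16 in replicates 1, 2 and 3 (mean 2.59 ± 0.425, SD, n = 3) and ranked 353. Both therefore stayed above the median optimal peak in every replicate.

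The copy in hng3 was the weakest. tRNA:iMet-CAT-1-3 had a relative signal of 1.05 in replicate 1, 0.499 in replicate 2 and 0.538 in replicate 3, with a mean of 0.695 ± 0.307 (SD, n = 3). Its optimal peak ranked 2983 of 3206, with a signal of 91.8 where the lowest in the set was 87.0. In the replicates it ranked 1489, 4999 and 4283, so it was among the 3206 strongest peaks in replicate 1 only. In whole embryos, fewer cells with Bdp1 at a gene and less binding in each cell cannot be told apart.

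**Figure D1:**
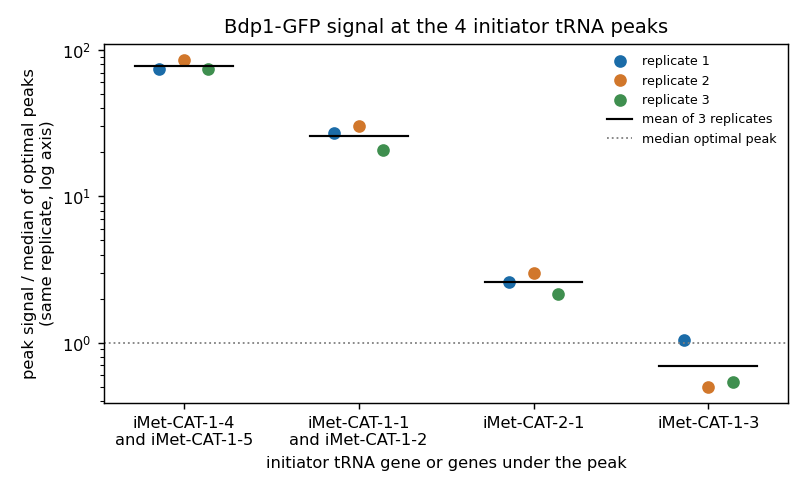
Relative signal (peak signal over the median optimal peak of that replicate, log axis) of the 4 initiator tRNA peaks, with 1 point for each replicate and a line at the mean of 3. The peaks separate into 4 levels from 77.6 down to 0.695, and the points of no pair of neighbouring levels overlap.

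The order of the 4 peaks was the same in each replicate, and the ranges of neighbours did not overlap. The relative signal at the 3L pair was 2.73, 2.83 and 3.56 times that at the 2R pair (mean 3.04 ± 0.454, SD, n = 3). The 2R pair was in turn 10.4, 9.97 and 9.62 times as high as tRNA:iMet-CAT-2-1. tRNA:iMet-CAT-2-1 was 2.48, 6.03 and 4.02 times as high as tRNA:iMet-CAT-1-3, a step whose size varied with the low values of the latter. Each of these 3 steps had the same direction in 3 of 3 replicates. Each gave p = 0.25 in a two-sided exact sign-flip permutation test over replicates, the smallest p that 3 replicates allow. The order was taken from the same values, so this p adds no support to it. From the top to the bottom of the order, the 3L pair peak was 70.4, 170.1 and 137.6 times as high as that of tRNA:iMet-CAT-1-3. The mean was 126-fold ± 50.9 (SD, n = 3). These genes have the same 72 bp, but the upper value belongs to both genes of the pair together. The lower value is near the lowest of the optimal set.

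Unequal peak signals at identical genes were also found in other tRNA families, and the initiator family was near the upper end. A copy under a shared peak carries the value of the whole peak, as both genes of the 3L pair do. There are 24 families of at least 5 tRNA genes with identical sequence. Within tRNA:iMet-CAT-1, the log2 ratio of the highest to the lowest copy was 6.14, 7.41 and 7.10 in replicates 1, 2 and 3 (mean 6.88 ± 0.67, SD, n = 3). The mean was lower in 22 of the 24 families, and the median over families was 4.06. The elongator family tRNA:Met-CAT-1, also of 5 genes, had a mean of 5.26 ± 0.15. Of the 24, only the serine family tRNA:Ser-GCT-2 had a higher mean, 7.11 ± 0.86, which lies within the replicate SD of the initiator value. The threonine family tRNA:Thr-AGT-1, next below with 6.49 ± 0.49, lies within that SD as well. Copies with no relaxed peak in a replicate were left out, which makes the spread of families that have such copies too small, and all 5 initiator copies had a peak in all 3 replicates.

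**Figure D2:**
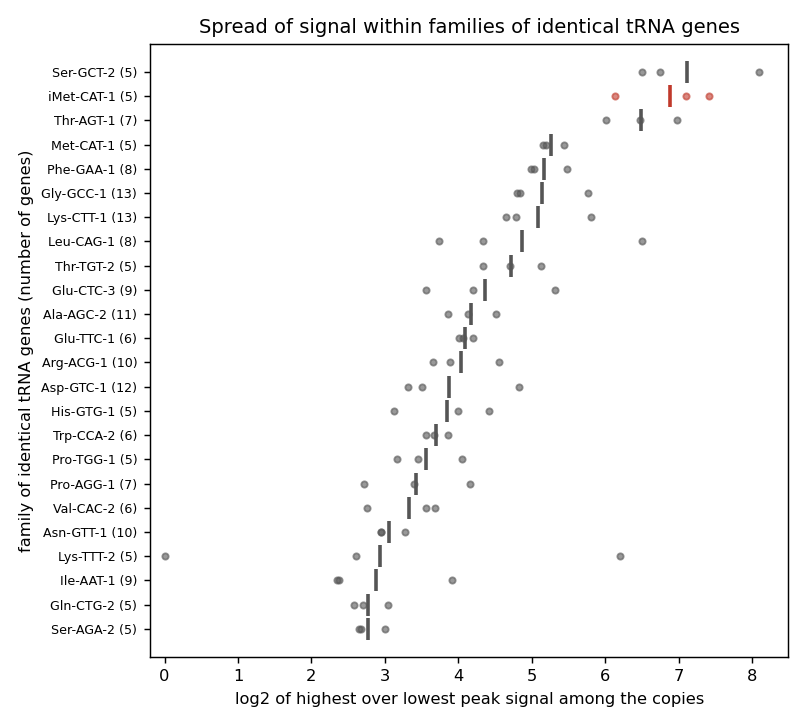
Spread of Bdp1 signal within the 24 families of at least 5 identical tRNA genes, as the log2 ratio of the highest to the lowest copy, with 1 point for each replicate and a bar at the mean. The initiator family (red) has a mean of 6.88, below tRNA:Ser-GCT-2 at 7.11 and above the median family at 4.06.

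Taken gene by gene, the initiator genes had a higher median signal than the other tRNA genes, but this rested on the shared peaks. The median relative signal of the 6 genes was 27.1, 30.03 and 20.8 in replicates 1, 2 and 3, and that of the other tRNA genes with a peak was 9.27, 9.34 and 8.08. These medians are over 268, 266 and 258 other genes, and 16, 18 and 26 had no relaxed peak. The difference of log2 medians was 1.53 ± 0.16 (SD, n = 3), a ratio of 2.89, higher in 3 of 3 replicates (two-sided exact sign-flip permutation test, p = 0.25, the smallest possible). Counting each peak 1 time, the difference was 0.26, and with the mean of the log2 values in place of the median it was 0.90. Among isolated genes, those with Pol III neighbours at more than 1000 bp, it turned over to -1.77, where the initiator side holds only tRNA:iMet-CAT-2-1 with tRNA:iMet-CAT-1-3.

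The other tRNA genes also had a higher median where another Pol III gene was within 1000 bp. Of the other tRNA genes with a value in all 3 replicates, the 91 isolated ones had a median relative signal of 4.59. The 165 with a Pol III neighbour had a median of 12.9. In these medians, genes under a shared peak each carry the value of the whole peak. The 2 groups were not compared with 1 value per peak. Against all 256, the peak of the 3L pair was above 255, and that of the 2R pair above 219. tRNA:iMet-CAT-2-1 was above 52 and tRNA:iMet-CAT-1-3 above 6. Against the 91 isolated genes alone, tRNA:iMet-CAT-2-1 was above 31 and tRNA:iMet-CAT-1-3 above 4, so both isolated copies were in the lower part of that group too.

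**Figure D3:**
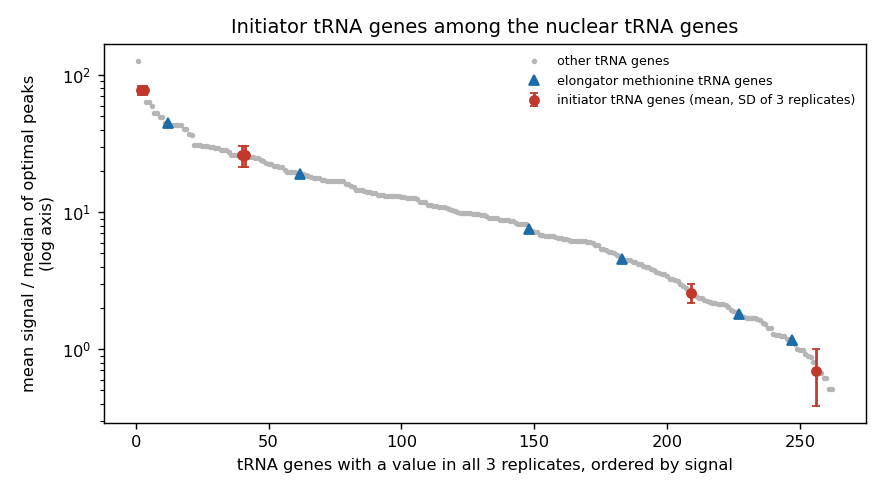
Mean relative signal (log axis) of the 262 tRNA genes with a value in all 3 replicates, ordered from high to low, with the 6 initiator genes in red (bars are the SD of 3 replicates) and the 6 elongator methionine genes as triangles. The initiator genes are spread over the order, with means of 77.6, 26.0, 2.59 and 0.695 for their 4 peaks and 1 tRNA gene above the highest, and the elongator genes run from 44.8 to 1.16.

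The tRNA gene peaks next above and next below in mean percentile rank over the 3 replicates belong to other families. Directly above the 3L pair stood a threonine gene, tRNA:Thr-AGT-1-4 (mean relative signal 126.6 ± 15.3, SD, n = 3), the highest of all tRNA genes. Directly below came the serine genes tRNA:Ser-GCT-2-5 and tRNA:Ser-GCT-1-1, which share a peak, at 63.2 ± 6.38. The mean rank of the 2R pair was the same as that of 3 other peaks, over tRNA:His-GTG-1-3 (27.5 ± 6.22), over tRNA:Ile-AAT-1-8 (26.1 ± 4.40) and over tRNA:Asn-GTT-1-7 with tRNA:Asn-GTT-1-8 (26.4 ± 2.87). Next above and next below these ties came the proline genes tRNA:Pro-AGG-1-3 and tRNA:Pro-AGG-1-4 (1 peak, 28.5 ± 3.21) and the leucine gene tRNA:Leu-TAG-1-2 (25.7 ± 3.06). For tRNA:iMet-CAT-2-1 these were tRNA:Glu-CTC-3-2 (2.68 ± 0.666) and tRNA:Asp-GTC-3-1 (2.53 ± 0.343), and for tRNA:iMet-CAT-1-3 they were tRNA:Pro-CGG-3-1 (0.891 ± 0.519) and tRNA:Leu-TAA-1-1 (0.688 ± 0.240). Apart from the 3L pair, each initiator peak differed from these neighbours by less than the SD over replicates.

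The elongator methionine genes are the closest comparison, since their tRNA has the same anticodon. All 6 of them had an optimal peak. Their median relative signal was 5.61, 6.60 and 5.38 in replicates 1, 2 and 3, against 27.1, 30.03 and 20.8 for the initiator genes. The difference of log2 medians was 2.14 ± 0.17 (SD, n = 3), a ratio of 4.40, higher for the initiator genes in 3 of 3 replicates (two-sided exact sign-flip permutation test, p = 0.25, the smallest possible). With 1 value per peak it was 0.48, and with the mean of the log2 values in place of the median it was 1.13. The initiator medians are the values of the peak shared by the 2R pair. The isolated genes tRNA:Met-CAT-1-2, tRNA:Met-CAT-2-1, tRNA:Met-CAT-1-4, tRNA:Met-CAT-1-5 and tRNA:Met-CAT-1-3 had means of 19.1, 7.59, 4.59, 1.82 and 1.16. Both isolated initiator genes, with 2.59 and 0.695, were below the middle value of these, 4.59. The highest elongator gene was tRNA:Met-CAT-1-1, with 44.6, 50.3 and 39.4 in the replicates (mean 44.8 ± 5.43). It forms a divergent pair with tRNA:Arg-TCT-1-1, so the highest gene of both methionine groups has a divergent tRNA gene beside it. The lowest was tRNA:Met-CAT-1-3, with 1.22, 1.16 and 1.11 (mean 1.16 ± 0.0545), which was above tRNA:iMet-CAT-1-3 in each replicate.

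The positions of the summits followed the arrangement of the genes. In the 3L pair, the summit lay 218, 213 and 214 bp upstream of tRNA:iMet-CAT-1-4 and 113, 118 and 117 bp upstream of tRNA:iMet-CAT-1-5 in replicates 1, 2 and 3. It was thus between the 5' ends, nearer to tRNA:iMet-CAT-1-5, and moved by only 5 bp between replicates. In the 2R pair, it lay 168, 175 and 113 bp upstream of tRNA:iMet-CAT-1-1 and 46, 39 and 101 bp upstream of tRNA:iMet-CAT-1-2. There it was close to tRNA:iMet-CAT-1-2 in replicates 1 and 2 and near the middle in replicate 3. How much of the signal under a shared peak belongs to either gene cannot be told apart from these lists.

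Divergent tRNA pairs with their 5' ends at most 500 bp apart are found 19 times in the annotation. All 19 lay under 1 shared peak, and in 17 the summit was between the 5' ends, both in the optimal set and in each replicate. Both initiator pairs are among the 17. Their spacings of 331 and 214 bp are above the median of 193 bp.

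The isolated copies had their summits near the gene start. At tRNA:iMet-CAT-2-1 the summit was 36, 22 and 34 bp upstream of the 5' end (mean position -30.7 ± 7.57 bp, SD, n = 3). The other isolated tRNA genes had median positions of -30, -29 and -27 bp, close to this value. At tRNA:iMet-CAT-1-3 the summit was 4 bp upstream in replicate 1 and 11 and 18 bp inside the gene in replicates 2 and 3 (mean position 8.33 ± 11.2 bp). Only 8 of 95, 11 of 95 and 12 of 91 other isolated genes had a summit downstream of the 5' end in replicates 1, 2 and 3. A low peak gives a less certain summit, and the precision here is not known without reads.

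**Figure D4:**
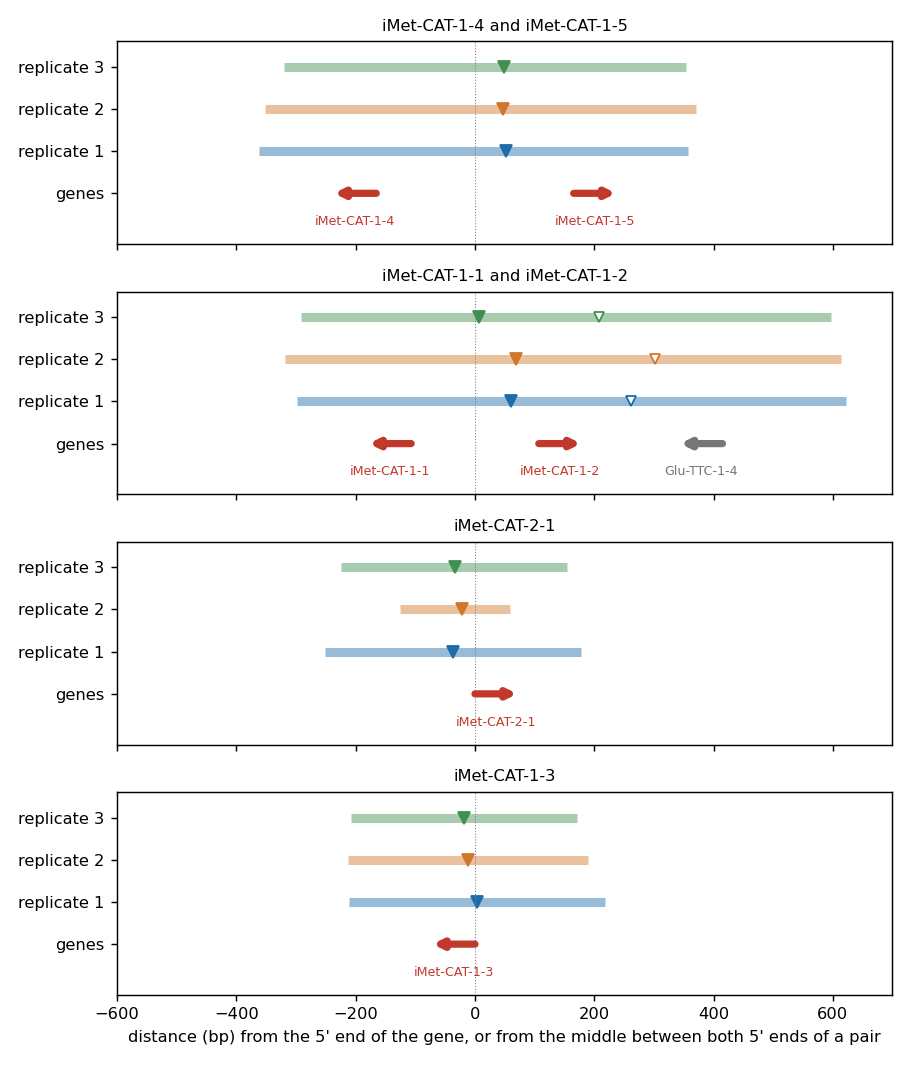
Peaks at the 4 initiator tRNA loci, as distance in bp from the 5' end, or from the middle between the 5' ends of a pair, with genes as arrows in the direction of transcription, peak intervals of each replicate as bars, main summits as filled triangles and further summits in the same interval as open ones. Summits of the pairs fall between the 5' ends, those of tRNA:iMet-CAT-2-1 lie 22 to 36 bp upstream, and those of tRNA:iMet-CAT-1-3 lie at the start of the gene.

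The 2R pair belongs to a larger group of Pol III genes. tRNA:Glu-TTC-1-4, a glutamate tRNA gene at chr2R:19726142-19726213 on the minus strand, lies under the same optimal peak of 963 bp and points towards tRNA:iMet-CAT-1-2, with 165 bp between their 3' ends. Each replicate had a second summit in this interval, with a relative signal of 5.84 in replicate 1, 0.864 in replicate 2 and 6.37 in replicate 3. In every replicate this second summit fell between those 3' ends, 101 to 195 bp downstream of the 5' end of tRNA:iMet-CAT-1-2. The next peak, at chr2R:19726874-19727764, covers tRNA:Glu-TTC-1-5 and snoRNA:185 and had a mean relative signal of 19.1 ± 2.00 (SD, n = 3). The array of 5S rRNA genes, also Pol III genes, begins 3586 bp beyond tRNA:iMet-CAT-1-2.

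Within 2000 bp, the other initiator genes have no Pol III neighbour but each other. Around the 3L pair, within the same distance, lie the protein-coding genes ome, CG4914 and CG43121. The 5' end of ome, 1174 bp from that of tRNA:iMet-CAT-1-4, had an optimal peak of rank 2538 with a relative signal of 0.346, 0.795 and 0.740 in the replicates (mean 0.627 ± 0.245). CG4914 and CG43121 had no optimal peak at the 5' end. For tRNA:iMet-CAT-1-3 the only gene within 2000 bp is hng3, whose nearest 5' end is 4445 bp away and has no optimal peak within 100 bp, and the next optimal peak has its summit 4826 bp away. For tRNA:iMet-CAT-2-1 the only one is Mmp2, without an optimal peak at its 5' ends, and the next optimal summit is 72280 bp away. The tRNA:iMet-CAT-2-1 peak therefore stands alone over a long stretch of the arm.

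The promoter elements inside the genes are the same in the strongest and the weakest copy. The word TGGCNNAGT, which stands for the A box, was searched on the gene's strand and starts at base 8 in all 6 initiator and all 6 elongator methionine genes, as in 34 of the 290 tRNA genes (11.7%). For the B box, GTTCGANNC was found in 160 genes (55.2%), among them all 6 elongator genes at base 53, but in no initiator gene. In its place the initiator genes hold GATCGAAAC at base 52, found in these 6 genes only (2.07%), and the same words hold for tRNA:iMet-CAT-2-1. This stretch encodes the T loop, whose departure from that of elongator tRNAs is a known mark of eukaryotic initiator tRNAs. GATCGAAAC differs from GTTCGANNC only by A in place of the first T, so the missing match does not mean that a B box is absent. It also fixes every base, so its count is not like that of GTTCGANNC, and a word open at that base was not searched. TATA occurs within 60 bases upstream in 80 tRNA genes (27.6%). Among the initiator genes it is found in tRNA:iMet-CAT-1-2, starting at position -4 from the 5' end, and in tRNA:iMet-CAT-1-3, starting at -56. A word match describes the letters in the window and is not evidence of a bound site.

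The first run of at least 4 T, the element at which Pol III stops, lies farther from the initiator genes than from most tRNA genes. Counted from 1 at the base after the 3' end, it begins at base 29 past tRNA:iMet-CAT-1-1, 26 past tRNA:iMet-CAT-1-2, 14 past tRNA:iMet-CAT-1-3, 26 past tRNA:iMet-CAT-1-4, 25 past tRNA:iMet-CAT-1-5 and 12 past tRNA:iMet-CAT-2-1. In the elongator methionine genes it begins at base 6 to 8, and the groups do not overlap. TTTT within 40 bases is found for 287 of the 290 tRNA genes (99.0%), and the median over the 281 others that have it is 10 bases, with quartiles of 7 and 15. A distance of 25 bases or more was found in 14 of these 281 and in 4 of the 6 initiator genes. These 4 are the members of both pairs, the copies with the higher Bdp1 peaks, while the isolated copies have 12 and 14 bases. In the 3L pair, the bases up to the run are nearly the same in both genes, so their distances of 26 and 25 bases are not separate cases. With 4 peaks in all, this is given as a description only.

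**Figure D5:**
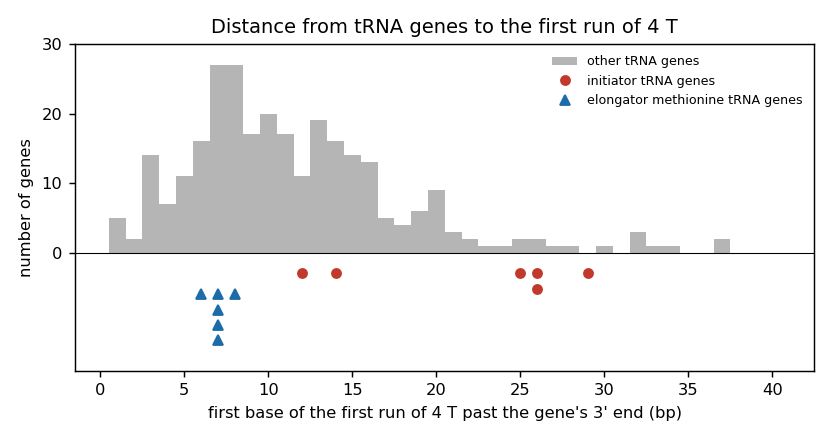
Number of tRNA genes (bars, initiator genes left out) by the position of the first of at least 4 T past the gene's 3' end, in bp, with the 6 initiator genes as red points and the 6 elongator methionine genes as triangles below the axis. The initiator genes lie at 12 to 29 bp and the elongator methionine genes at 6 to 8 bp, where the median of the others is 10 bp.

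Some of the protein-coding genes that act with the initiator tRNA also had a Bdp1 peak. Of 17 genes of this list, which holds the subunits of eIF2 and eIF2B, eIF1, eIF1A, eIF5, eIF5B, eIF2D, DENR, MCTS1 and the methionyl-tRNA synthetases, 4 had an optimal peak at a 5' end (23.5%), beside 13.7% of all protein-coding genes. eIF5B, which joins the ribosomal subunits at the start codon, had a mean relative signal of 0.891 ± 0.221 (SD, n = 3). The eIF2B subunits eIF2Bdelta and eIF2Bepsilon, parts of the exchange factor that reloads eIF2 with GTP, had 0.768 ± 0.109 and 0.589 ± 0.302, and eIF2D had 0.681 ± 0.116. Their peaks ranked from 2069 to 2996 in the optimal set, and none of the 4 holds a Pol III gene. The weakest initiator gene, tRNA:iMet-CAT-1-3 at 0.695, was thus in the range of these protein-coding genes, and the other initiator genes were above it.

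How well reads can be placed could affect repeated genes. Of the words of 32 bases within 200 bp of the 5' end, the share found at only 1 place in the genome was 88.4% for tRNA:iMet-CAT-1-1, 87.8% for tRNA:iMet-CAT-1-2, 87.0% for tRNA:iMet-CAT-1-3, 84.3% for both genes of the 3L pair and 96.8% for tRNA:iMet-CAT-2-1. The median of all tRNA genes was 87.3%. The strongest of the identical copies thus had 84.3% and the weakest 87.0%. Whether the placing of reads bears on the peak signals was not tested. No peak interval was the same between any 2 replicate lists.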

How the data were processed

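Peak lists were used as the authors deposited them, in narrowPeak format. Per the text deposited with them, the 3 replicate lists and the pooled list are relaxed lists of peaks and background called against a control alignment, and the optimal list was derived from all of these. The aligner, caller and threshold were not given in the sources used here. Results rest on the deposited peak signal, on build dm6. Lists on dm3 were not used here. Per-sample columns left without a sample numbered 0.

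For each gene, the highest peak that shared 1 bp or more with the 5' end ± 100 bp was taken. Its signal was divided by the median over the optimal peaks with a value in that replicate (3131, 3137 and 3176 peaks). Summits are 1-based and given relative to the 5' end, upstream negative. Genes came from Ensembl release 115, whose coordinates match those of RefSeq for 290 of 290 tRNA genes, and sequences from RefSeq. A gene was called isolated when no other Pol III gene lay within 1000 bp.

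All samples form 1 group, so tests were two-sided exact sign-flip permutation tests over 3 replicates, for which 0.25 is the smallest p. The members and gene lists were chosen with earlier results of these data known. Named genes are the 6 members, genes within 2000 bp, the highest and lowest elongator genes, the tRNA gene peaks next in percentile rank and initiation genes with a peak; families and words beyond these were chosen after their values were seen. Alternatives changed the window, the peak list, the scaling, the unit counted and the replicates used. The scripts were tested on simulated peaks and run in Python 3.11.15 with numpy 2.4.6 and pandas 2.3.3.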

Additional observations from a re-analysis of the deposited data

How the results depend on the processing

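Of 85 alternative values, 75 kept the direction of a tested difference or, for counts, levels and positions, stayed near the value reported, 9 moved and 1 reversed. Some of the 75 only returned the main value again, and most of the 9 were changes of unit, so these counts do not measure robustness. With 1 value per peak, the tested differences, though counted as kept, shrank to 0.26 (other tRNA genes) and 0.48 (elongator genes). With mean log2 values they were 0.90 and 1.13. Requiring the summit itself within 100 bp of the 5' end left 3 of the 6 genes, tRNA:iMet-CAT-1-2, tRNA:iMet-CAT-1-3 plus tRNA:iMet-CAT-2-1, since the optimal summits lie farther from the other 3. Divided by the median tRNA gene in place of the median optimal peak, the signal was 8.66 for the 3L pair, 2.88 for the 2R pair, 0.288 for tRNA:iMet-CAT-2-1 and 0.0770 for tRNA:iMet-CAT-1-3. As percentile ranks these were 99.9956, 99.9033, 98.7 and 88.04, in the same order. With isolated genes only, the difference from other tRNA genes reversed to -1.77, because the pairs drop out.

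Leaving out 1 replicate, the count of genes was 5 each time, without tRNA:iMet-CAT-1-3. This is not a count of optimal peaks, because the optimal set was made from all 3 replicates and was not rebuilt. The relative signals ranged from 73.9 to 79.4, 23.9 to 28.6, 2.38 to 2.81 and 0.518 to 0.794 in that order of peaks, and the log2 differences from 1.46 to 1.62 against other tRNA genes and from 2.07 to 2.23 against elongator genes. Summit positions ranged from -171.5 to -140.5, -73.5 to -42.5, 3.5 to 14.5, -216 to -213.5, -117.5 to -115 and -35 to -28 bp for tRNA:iMet-CAT-1-1 to tRNA:iMet-CAT-1-5 and, last, tRNA:iMet-CAT-2-1. No paired analysis was possible because there is only 1 group. The unknown depth limits what can be said of the weak peak at tRNA:iMet-CAT-1-3.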
